A study of Homo sapiens with 24 samples.

Results

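Mitochondria fuse with each other and divide, and the machinery for both is encoded in the nucleus. The mitofusins MFN1 and MFN2 are GTPases that tether and merge the outer membranes of neighbouring mitochondria, and OPA1, a dynamin-like GTPase of the intermembrane space, merges the inner membranes and keeps the cristae closed. Division is driven by DRP1, the product of DNM1L, a cytosolic GTPase that is drawn to the outer membrane by the receptors MFF, MIEF1 and MIEF2 and constricts the organelle there. FIS1 is an outer membrane protein whose yeast counterpart is the anchor of the division machinery. MTFP1 is an inner membrane protein and MTFR1 a mitochondrial protein, and both are linked to fission. The balance of fusion and division is widely studied in neurons and in cell models of Parkinson's disease, where complex I inhibitors are known to fragment the mitochondrial network.

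The 10 genes named here were taken by symbol from a list of mitochondrial dynamics genes that was drawn up with earlier results of these data known, and the rule itself uses no measured value. All 10 were found in both deposited tables, among 63241 genes with an identifier in the untreated table and 36741 in the treated one, and all 10 passed the filter of at least 1 TPM in 3 or more libraries of each table. TPM is transcript abundance corrected for transcript length, and it sums to an equal total in each library. The study sequenced polyadenylated RNA of 24 libraries of a line labelled SH-SY5Y, a human neuroblastoma line used as a model of dopaminergic neurons. In shMCART1 cells a hairpin lowered MCART1, with shScramble cells as their control, and in oeMCART1 cells MCART1 was overexpressed, with oeNC cells as theirs. MCART1 is now called SLC25A51, and it carries NAD+ into the mitochondrial matrix. Cells of each construct were sampled after 24 h in 0.5 mM MPP+, a neurotoxin that inhibits complex I, and without it, which makes 8 groups of 3 libraries. The sources used here do not say which promoter drove the constructs, how many hairpins were used, or whether the libraries of a group came from separate cultures. The p-values therefore rest on a spread between libraries that may be technical.

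The defining markers of the labelled cell type gave mixed values. Of 10 markers of adrenergic neuroblastoma cells, HAND2, GATA3 and ISL1 were above 1 TPM in all 24 libraries, and CHGA lay between 0.82 and 4.73 TPM. TH was at 0 in all 12 untreated libraries, and PHOX2A and DBH did not exceed 0.09 and 0.07 TPM. In the treated table, where 7 of the 10 were listed, TH was at 0 in 11 of 12 libraries. Between 3 and 5 markers were at 1 TPM or more in all 3 libraries of a group, and the list summed to between 11.3 and 17.3 TPM per library. The summed level of 7 mesenchymal neuroblastoma markers was 38.4 to 58.03 TPM per library, with FN1, SNAI2, YAP1 and COL1A1 above 1 TPM in all 24 libraries and COL1A2 below 1 TPM in all. Markers of HEK293T cells, which the growth protocol also names, did not all point one way: PAX8 did not reach 1 TPM in any of the 24 libraries, while others were expressed. The 6 markers of blood cells, checked because the tissue label reads bone marrow, summed to between 0.28 and 1.62 TPM. The cells are called by their construct below and given no cell type.

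The targeted gene, SLC25A51, averaged 7.28 ± 2.02 TPM in untreated shMCART1 cells and 10.9 ± 0.382 TPM in shScramble cells (SD, n = 3 each, as for every mean ± SD below), so the knockdown was partial. Its log2 change was -0.56 ± 0.14 (SE, limma, adjusted p = 0.0195), called in 3 of 6 fits that leave out 1 library. In the same libraries DNM1L (-0.96), MFN1 (-0.85), OPA1 (-0.79) and MTFR1 (-0.67) changed more than the target in TPM as deposited, and the other members less. This order did not hold with the trend on GC content removed, a setting described below. The target was then at -0.43 ± 0.09 (limma, adjusted p = 0.0223), DNM1L at -0.41, MFN1 at -0.22, OPA1 at -0.15 and MTFR1 at -0.07. With MPP+ SLC25A51 averaged 5.33 ± 0.423 TPM in shMCART1 cells and 7.91 ± 0.899 TPM in shScramble cells. Overexpression gave 683 ± 12.3 TPM in untreated oeMCART1 cells against 31.6 ± 3.48 TPM in oeNC cells, and with MPP+ 936 ± 69.0 TPM against 8.49 ± 0.837 TPM. Between 13022 and 14306 genes reached 1 TPM per library, with the lowest number in shMCART1 replicate 3. The 13 mRNAs encoded by mitochondrial DNA took 4.59 ± 0.638% of TPM in untreated shMCART1 cells, 4.90 ± 0.266% in shScramble cells, 4.44 ± 0.508% in oeMCART1 cells and 8.70 ± 1.09% in oeNC cells. With MPP+ their share was 0.418 ± 0.0162% in shMCART1 cells, 0.285 ± 0.0236% in shScramble cells, 0.724 ± 0.0599% in oeMCART1 cells and 0.421 ± 0.0315% in oeNC cells. This share moved with the groups, and its part in the values below was not tested.

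The members divide by base composition, and this bears on most of the results. The median GC content over a gene's GENCODE 29 transcripts was 38.6% for OPA1, 39.0% for MFN1, 40.9% for MTFR1, 42.4% for DNM1L and 46.1% for MFF, all below the median of 50.2% over the genes tested in the untreated table. It was 54.0% for MFN2, 56.9% for MIEF1, 58.4% for FIS1, 61.9% for MTFP1 and 63.6% for MIEF2. The 2 mitofusins and the 2 MIEF receptors are pairs of paralogs with nearly equal coding lengths, 2223 and 2271 bases for MFN1 and MFN2, 1389 and 1362 bases for MIEF1 and MIEF2, yet they differ in composition. The third base of a codon, which is largely free to vary without changing the protein, was G or C in 35.4% of MFN1 codons, 70.5% of MFN2 codons, 69.5% of MIEF1 codons and 78.9% of MIEF2 codons. The 120 coding bases at the middle of the reading frames of MFN1, MIEF1 and MIEF2 are shown to make the range of composition visible, 5′ to 3′ from GENCODE 29 on GRCh38, with G and C in capitals and A and T in lower case.
MFN1: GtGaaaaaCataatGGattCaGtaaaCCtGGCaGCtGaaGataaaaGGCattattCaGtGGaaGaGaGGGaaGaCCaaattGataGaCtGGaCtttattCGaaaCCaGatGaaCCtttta
MIEF1: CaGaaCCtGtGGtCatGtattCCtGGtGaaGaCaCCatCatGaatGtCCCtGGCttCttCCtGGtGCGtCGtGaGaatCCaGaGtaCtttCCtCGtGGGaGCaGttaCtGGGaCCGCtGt
MIEF2: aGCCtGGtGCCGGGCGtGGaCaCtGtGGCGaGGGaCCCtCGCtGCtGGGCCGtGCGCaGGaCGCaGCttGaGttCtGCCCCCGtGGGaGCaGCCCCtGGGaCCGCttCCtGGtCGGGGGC
G and C made up 37.5% of the bases shown for MFN1, 52.5% for MIEF1 and 73.3% for MIEF2.

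MFN1 lies at chr3:179347692-179394931 (plus strand), MFN2 at chr1:11980181-12013514 (plus), MIEF1 at chr22:39499432-39518132 (plus) and MIEF2 at chr17:18260534-18266552 (plus), all protein-coding genes of GENCODE 29 on GRCh38. OPA1 lies at chr3:193593144-193697823 (plus), DNM1L at chr12:32679200-32745650 (plus), FIS1 at chr7:101239458-101252316 (minus), MFF at chr2:227325151-227357836 (plus) and MTFP1 at chr22:30425530-30429053 (plus). The libraries are labelled strand-specific, but whether counting used the strand is not given in the sources used here. Exons of OPA1 share 208 bases with the antisense gene OPA1-AS1, those of DNM1L 202 bases and of MFF 48 bases with noncoding genes on the opposite strand, and those of MTFR1 116 bases with PDE7A, likewise on the opposite strand. MIEF1 shares 213 exonic bases with the protein-coding gene AL022312.1 and MTFP1 shares 890 of its 1696 exonic bases with AC004832.3, both on the same strand, so that reads in these stretches could have been split and the level of MTFP1 in particular is uncertain. MFN1, MFN2, FIS1 and MIEF2 overlap no other exon.

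Promoters were searched because 4 of the members moved together. Of the 300 bases from 250 before to 50 after a gene's start in RefSeq (GRCh38.p14), the window of OPA1 was the only one among the 9 members searched, all but MTFR1, to hold the NRF1 motif GCGCATGCG, which 1.92% of 35116 promoters hold on either strand. The ETS motif CCGGAAGTG, held by 2.36% of promoters, was found in the windows of MFN1 and FIS1. None of these windows held the CRE motif TGACGTCA, the ERR alpha motif TCAAGGTCA or the ATF4 with C/EBP motif TGATGNAA, which 1.85%, 0.353% and 3.62% of promoters hold. The windows of OPA1 and MFN1 are shown as the members with a match among those with GC-poor transcripts, 5′ to 3′ on the plus strand with the matching bases in capitals. In OPA1 the matches on the plus and minus strands overlap, so the capitals run over both.
OPA1, chr3:193592958-193593257: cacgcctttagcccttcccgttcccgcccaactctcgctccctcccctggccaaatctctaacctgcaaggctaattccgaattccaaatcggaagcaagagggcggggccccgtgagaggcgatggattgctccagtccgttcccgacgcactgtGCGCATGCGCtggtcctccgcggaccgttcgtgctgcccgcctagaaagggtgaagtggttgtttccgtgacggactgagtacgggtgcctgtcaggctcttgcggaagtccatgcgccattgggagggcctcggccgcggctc
MFN1, chr3:179347459-179347758: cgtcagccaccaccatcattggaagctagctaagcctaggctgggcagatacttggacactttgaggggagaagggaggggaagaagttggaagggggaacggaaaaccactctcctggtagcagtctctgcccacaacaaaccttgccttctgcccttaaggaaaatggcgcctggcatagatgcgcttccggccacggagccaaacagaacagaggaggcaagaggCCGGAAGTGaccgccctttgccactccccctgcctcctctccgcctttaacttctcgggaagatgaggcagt
GC content was 63.0% in the OPA1 window and 57.0% in the MFN1 window, above that of the genes' transcripts. A match is a description of these letters and says nothing of binding.

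Levels of the 10 genes differed widely within every group, and FIS1 had the highest mean in all 8. In untreated shScramble cells it stood at 149 ± 8.9 TPM, and MTFP1 (91.5 TPM), MFN2 (78.1 TPM), MFF (59.9 TPM), MIEF1 (48.6 TPM), MTFR1 (32.8 TPM) and DNM1L (20.04 TPM) followed, with no overlap between neighbours in that order. OPA1 (6.54 TPM), MFN1 (6.05 TPM) and MIEF2 (5.18 TPM) were lowest, where the libraries of OPA1 and MFN1 overlapped. The 2 members of a paralog pair thus differed widely in level, MFN2 being 13.2 ± 2.44 times MFN1 and MIEF1 9.40 ± 0.455 times MIEF2 in the same libraries. Summed over the 10 genes, the level in untreated groups was 518 ± 17.5 TPM in shMCART1 cells, 498 ± 14.4 TPM in shScramble cells, 483 ± 15.6 TPM in oeMCART1 cells and 505 ± 9.0 TPM in oeNC cells. With MPP+ it was 420 ± 11.1 TPM in shMCART1 cells, 435 ± 12.1 TPM in shScramble cells, 488 ± 0.883 TPM in oeMCART1 cells and 421 ± 19.6 TPM in oeNC cells. The treated and untreated tables were deposited separately, so levels with and without MPP+ are set side by side here and were not tested against each other.

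**Figure D1:**
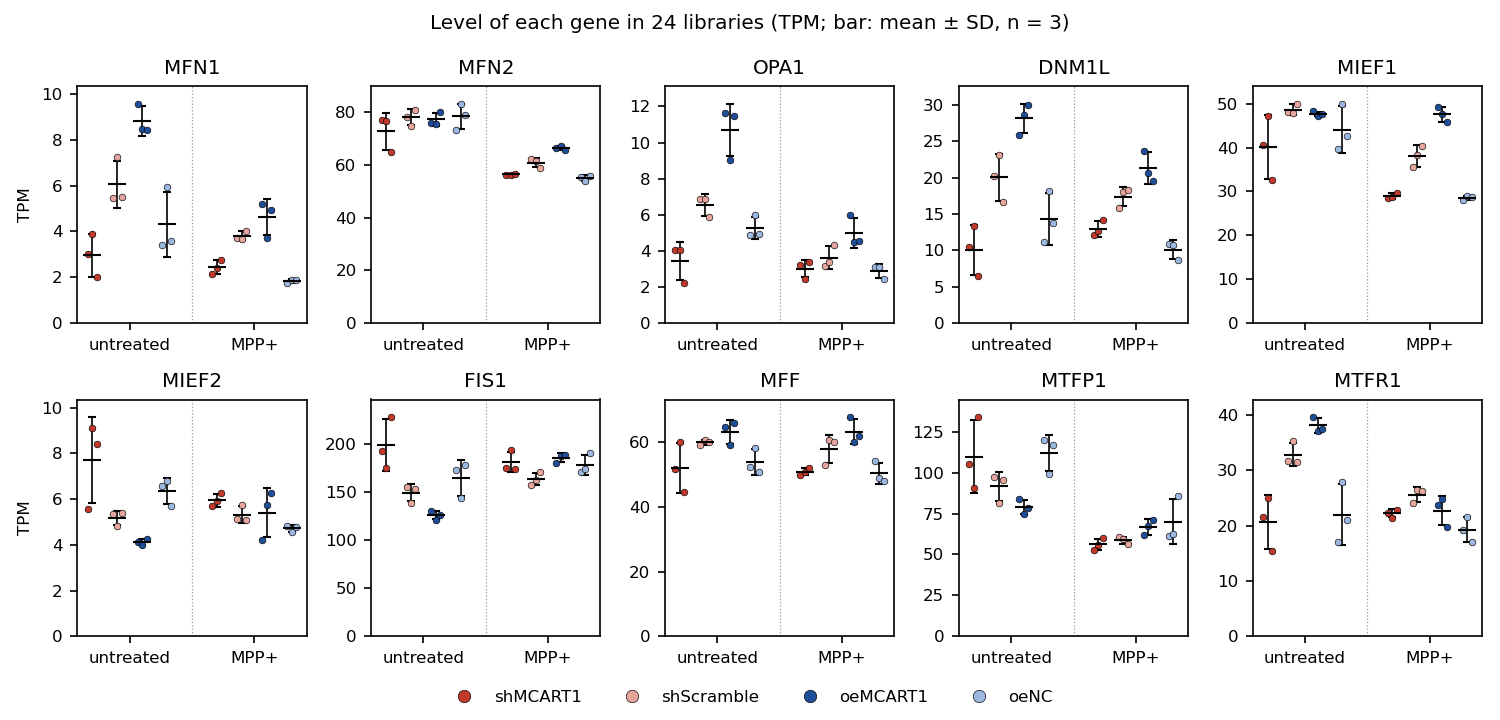
Level of each gene in TPM (vertical axis, from 0) in every library, by construct, without (left of the dotted line) and with MPP+ (right); points are libraries, bars mean ± SD of 3. MFN1, OPA1, DNM1L and MTFR1 have their lowest mean in shMCART1 and their highest in oeMCART1 cells among untreated groups, while treated MIEF1 lies at 28.4 to 29.7 TPM in shMCART1 cells, 35.6 to 40.4 TPM in shScramble cells, 45.8 to 49.2 TPM in oeMCART1 cells and 28.1 to 28.9 TPM in oeNC cells.

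Without MPP+, knockdown of MCART1 was compared with the scrambled hairpin to ask how lower SLC25A51 affects these genes at baseline. DNM1L, MFN1, OPA1 and MTFR1 fell in shMCART1 cells, 4 members of 10, and FIS1 and MIEF2 rose. Over all 14703 genes tested, 25.6% were called lower and 8.64% higher (limma, Benjamini-Hochberg adjusted p under 0.05), and the median log2 change was -0.25 over the 10 members and -0.15 over all genes, on the log2(TPM + 1) scale used throughout. DNM1L stood at 10.4, 13.4 and 6.52 TPM in shMCART1 cells, against 20.3, 23.2 and 16.7 TPM in shScramble cells. The groups did not overlap, shMCART1 replicate 3 was the lowest, and the log2 change was -0.96 ± 0.22 (SE, adjusted p = 0.0162). In bulk RNA, fewer cells with a transcript and less of it per cell cannot be told apart. MFN1 stood at 3.0, 3.88 and 1.99 TPM in shMCART1 cells, against 5.44, 7.23 and 5.49 TPM in shScramble cells (log2 change -0.85 ± 0.21, adjusted p = 0.0172). Its paralog MFN2 was at 77.0, 76.8 and 64.8 TPM in shMCART1 cells, against 78.4, 74.97 and 81.03 TPM in shScramble cells, and did not pass the test (log2 change -0.10 ± 0.08, adjusted p = 0.33). OPA1 fell to 4.05, 4.06 and 2.21 TPM in shMCART1 cells, against 6.89, 6.88 and 5.86 TPM in shScramble cells (log2 change -0.79 ± 0.18, adjusted p = 0.0154). Both fusion GTPases with GC-poor transcripts were thus lower in all 3 knockdown libraries, while the abundant mitofusin overlapped between groups.

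Among the outer membrane proteins of division, FIS1 rose to 192, 175 and 227 TPM in shMCART1 cells, against 155, 139 and 153 TPM in shScramble cells (log2 change 0.40 ± 0.11, adjusted p = 0.0202). MIEF2 rose to 5.58, 9.12 and 8.43 TPM in shMCART1 cells, against 5.34, 4.83 and 5.38 TPM in shScramble cells (log2 change 0.47 ± 0.15, adjusted p = 0.0335). MIEF1 averaged 40.1 ± 7.3 TPM in shMCART1 cells and 48.6 ± 1.2 TPM in shScramble cells and did not pass the test (log2 change -0.29 ± 0.12, adjusted p = 0.0817), nor did MFF (-0.21 ± 0.10, adjusted p = 0.12). MTFR1 fell to 20.7 ± 4.82 TPM in shMCART1 cells, against 32.8 ± 2.1 TPM in shScramble cells, whereas MTFP1 was at 110 ± 22.0 TPM in shMCART1 cells and 91.5 ± 8.6 TPM in shScramble cells, with a log2 change of 0.25 ± 0.13 (adjusted p = 0.153). All 6 calls ended when the fit held these 2 groups alone, where none of 14703 genes was called (5799 at an unadjusted p under 0.05, limma), and when shScramble replicate 2 was left out, where 2 of 14611 genes were called. Without shMCART1 replicate 3 only OPA1 was called, where 971 of 14619 genes were. Over the 6 fits that leave out 1 library, the log2 change ranged from -1.17 to -0.71 for DNM1L and from -1.02 to -0.67 for MFN1. MIEF2 kept its call in 1 of these fits.

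Across all genes, the change with knockdown followed GC content, with a Spearman correlation of 0.777 over 14157 genes that share the same libraries. The 4 members that fell were the 4 with the lowest GC content, and the 2 that rose were among the 3 highest. With each library's trend of log2 level on GC content removed, DNM1L was the only member called (log2 change -0.41 ± 0.10, adjusted p = 0.0368). MFN1 was then at -0.22 ± 0.10 (adjusted p = 0.175), OPA1 at -0.15 ± 0.11 (0.396), MTFR1 at -0.07 ± 0.07 (0.533), FIS1 at 0.24 ± 0.08 (0.0661) and MIEF2 at 0.20 ± 0.15 (0.402). MIEF1 moved away from 0 instead, to -0.40 ± 0.12 (adjusted p = 0.0569). With median-of-ratios scaling, where the median over all genes was 0.02, the same 6 members were called, and calls over all genes were split evenly, 2954 higher and 2957 lower, where 25.2% were higher in TPM as deposited. The cause of the GC trend was not tested.

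Overexpression was compared with its control construct in the same way, to ask the reverse question. Without MPP+, 4 members rose in oeMCART1 cells (DNM1L, MFN1, OPA1 and MTFR1) and 3 fell (MIEF2, MTFP1 and FIS1), where 33.5% of 14703 genes were called higher and 14.7% lower. DNM1L rose to 25.9, 28.6 and 29.9 TPM in oeMCART1 cells, against 11.1, 18.1 and 13.7 TPM in oeNC cells (log2 change 0.95 ± 0.22, adjusted p = 0.00739). MFN1 rose to 9.58, 8.48 and 8.43 TPM in oeMCART1 cells, against 3.42, 5.93 and 3.56 TPM in oeNC cells (log2 change 0.92 ± 0.21, adjusted p = 0.00641). OPA1 rose to 11.6, 9.06 and 11.5 TPM in oeMCART1 cells, against 4.88, 5.98 and 4.95 TPM in oeNC cells (log2 change 0.90 ± 0.18, adjusted p = 0.00472). No library of one group overlapped the other in these genes, and oeNC replicate 2 was the highest of its group in each. MTFR1 rose to 38.1 ± 1.3 TPM in oeMCART1 cells, against 22.0 ± 5.5 TPM in oeNC cells (log2 change 0.79 ± 0.18, adjusted p = 0.00639).

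FIS1 fell to 126 ± 4.55 TPM in oeMCART1 cells, against 164 ± 18.3 TPM in oeNC cells (log2 change -0.38 ± 0.11, adjusted p = 0.0136), MIEF2 to 4.12 ± 0.13 TPM against 6.36 ± 0.58 TPM (-0.52 ± 0.15, 0.0157), and MTFP1 to 79.0 ± 4.51 TPM against 112 ± 10.9 TPM (-0.49 ± 0.13, 0.0113). MFN2 was at 77.4 ± 2.5 TPM in oeMCART1 cells and 78.5 ± 4.92 TPM in oeNC cells, with a log2 change of -0.02 ± 0.08 (adjusted p = 0.87) that became -0.24 and a call (adjusted p = 0.0113) with median-of-ratios scaling. MIEF1 was at 47.7 ± 0.5 TPM in oeMCART1 cells and 44.1 ± 5.35 TPM in oeNC cells, and the libraries overlapped (log2 change 0.12 ± 0.12, adjusted p = 0.452). Across genes the change ran against GC content (Spearman correlation -0.801 over 14157 genes). With the GC trend removed none of the 7 calls remained, and MFF, at -0.21 ± 0.06, was called lower (adjusted p = 0.0399) where its change in TPM as deposited was 0.23 ± 0.10 (adjusted p = 0.0834). Under that setting DNM1L was at 0.28 ± 0.10 (adjusted p = 0.0811). FIS1 lost its call without oeNC replicate 1 or 3 and MIEF2 without oeNC replicate 1 (highest adjusted p = 0.0575 and 0.0545). Higher genes made up 69.6% of all calls in TPM as deposited and 50.2% with median-of-ratios scaling.

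**Figure D2:**
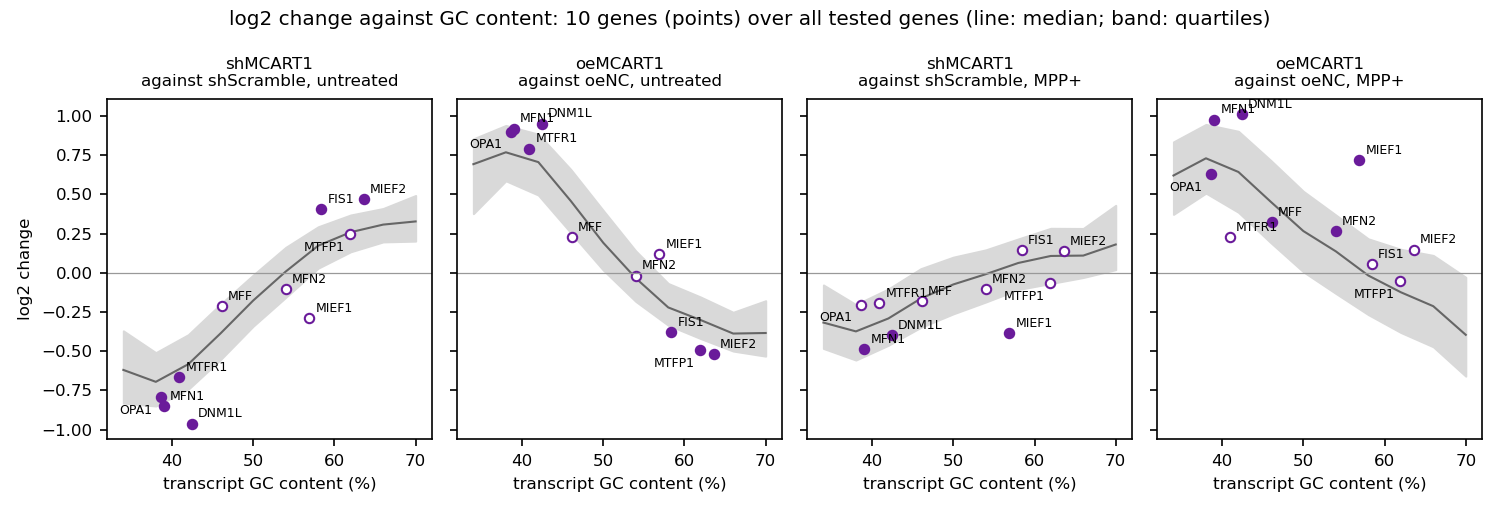
The log2 change of the 10 genes (points, filled where the adjusted p is under 0.05) against transcript GC content in percent, over the median (line) and quartiles (band) of all tested genes in bins of GC content, in 4 panels, one per comparison of shMCART1 with shScramble or oeMCART1 with oeNC cells. MIEF1 lies outside the band in all 4 panels, below it in shMCART1 cells at -0.29 without and -0.38 with MPP+, and above it in oeMCART1 cells at 0.12 without and 0.72 with MPP+.

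Under MPP+, where the study asks how MCART1 acts on cells with inhibited complex I, 3 members fell in shMCART1 cells, MIEF1, MFN1 and DNM1L, and none rose (1 higher at an unadjusted p under 0.05, limma). Of 14895 genes tested in the treated table, 22.2% were called lower and 10.8% higher, and the median log2 change was -0.19 over the members and -0.08 over all genes. MIEF1, which recruits DRP1 to the outer membrane, fell to 28.4, 28.7 and 29.7 TPM in shMCART1 cells, against 35.6, 38.2 and 40.4 TPM in shScramble cells. The lowest shScramble library lay well above the highest shMCART1 library, and the log2 change was -0.38 ± 0.06 (SE, adjusted p = 0.000558). MFN1 fell to 2.14, 2.41 and 2.76 TPM in shMCART1 cells, against 3.70, 3.67 and 4.03 TPM in shScramble cells (log2 change -0.49 ± 0.12, adjusted p = 0.00855). DNM1L fell to 12.0, 12.6 and 14.2 TPM in shMCART1 cells, against 15.8, 18.1 and 18.3 TPM in shScramble cells (log2 change -0.40 ± 0.10, adjusted p = 0.0129). This call ended without shScramble replicate 3 or shMCART1 replicate 1.

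The other members did not pass the test in treated knockdown cells. OPA1 averaged 3.003 ± 0.48 TPM in shMCART1 cells and 3.62 ± 0.62 TPM in shScramble cells (log2 change -0.20 ± 0.14, adjusted p = 0.296), MFN2 56.5 ± 0.28 TPM and 60.9 ± 1.8 TPM (-0.11 ± 0.04, 0.0633), and FIS1 181 ± 10.7 TPM and 163 ± 6.4 TPM (0.14 ± 0.05, 0.0597). With median-of-ratios scaling FIS1 was called higher (0.25, adjusted p = 0.00891). MFF, MIEF2, MTFP1 and MTFR1 had log2 changes of -0.18, 0.14, -0.06 and -0.19. Once the GC trend was removed, MIEF1 was the only member called, at -0.41 ± 0.05 (adjusted p = 0.000305), while MFN1 was at -0.15 ± 0.12 (0.383) and DNM1L at -0.11 ± 0.06 (0.183). Over all 9 alternative settings and the 6 fits that leave out 1 library each, MIEF1 kept its call, with log2 changes from -0.43 to -0.27 and a highest adjusted p of 0.00434. Higher genes made up 32.8% of calls in TPM as deposited and 53.8% with median-of-ratios scaling, and the Spearman correlation of change with GC content was 0.484 over 13923 genes.

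Under MPP+ 6 members rose in oeMCART1 cells and none fell (none lower at an unadjusted p under 0.05 either, limma), where 46.7% of 14895 genes were called higher and 14.2% lower and the median log2 change was 0.30 over the members and 0.26 over all genes. MIEF1 rose to 49.2, 47.8 and 45.8 TPM in oeMCART1 cells, against 28.1, 28.9 and 28.7 TPM in oeNC cells (log2 change 0.72 ± 0.06, adjusted p = 1.62e-06). DNM1L rose to 23.7, 20.6 and 19.5 TPM in oeMCART1 cells, against 10.9, 10.7 and 8.60 TPM in oeNC cells (log2 change 1.01 ± 0.10, adjusted p = 9.21e-06). In both genes the 3 libraries of oeMCART1 cells lay far above the 3 of oeNC cells. MFN1 rose to 5.19, 3.73 and 4.92 TPM in oeMCART1 cells, against 1.75, 1.87 and 1.88 TPM in oeNC cells (log2 change 0.98 ± 0.12, adjusted p = 2.47e-05). OPA1 rose to 5.97, 4.49 and 4.53 TPM in oeMCART1 cells, against 3.09, 3.09 and 2.42 TPM in oeNC cells (log2 change 0.63 ± 0.14, adjusted p = 0.00235). MFF, the other major receptor of DRP1, rose to 63.1 ± 4.0 TPM in oeMCART1 cells, against 50.2 ± 3.4 TPM in oeNC cells (log2 change 0.32 ± 0.07, adjusted p = 0.00132), and MFN2 to 66.5 ± 0.88 TPM against 55.1 ± 1.1 TPM (0.27 ± 0.04, 0.000139).

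FIS1 and MTFP1, the members with the highest means in these cells, did not pass the test, nor did MIEF2 and MTFR1. FIS1 averaged 185 ± 4.5 TPM in oeMCART1 cells and 178 ± 10.5 TPM in oeNC cells (log2 change 0.06 ± 0.05, adjusted p = 0.38), and MTFP1 66.8 ± 4.6 TPM and 70.0 ± 13.9 TPM (-0.05 ± 0.11, 0.701). Relative to the median of all genes the picture shifted, since with median-of-ratios scaling both were called lower, FIS1 at -0.27 (adjusted p = 0.00285) and MTFP1 at -0.38 (0.0191), and MFF (0.00) and MFN2 (-0.06) were no longer called. Higher genes made up 76.6% of all calls in TPM as deposited and 47.9% with that scaling. With the GC trend removed, MIEF1 was at 0.71 ± 0.05 (adjusted p = 2.06e-06), DNM1L at 0.39 ± 0.06 (0.00034) and MFN2 at 0.16 ± 0.04 (0.00696), all still higher. MIEF2 was then called higher (0.32 ± 0.11, adjusted p = 0.0308) and MTFR1 lower (-0.44 ± 0.07, adjusted p = 0.000259), whereas MFN1 (0.29 ± 0.12, 0.0614), OPA1 (-0.06 ± 0.11, 0.648) and MFF (-0.11 ± 0.05, 0.0876) were not called. MIEF1 and DNM1L kept their calls in all 9 alternative settings and all 6 fits that leave out 1 library, with log2 changes from 0.40 to 0.74 for MIEF1 and from 0.39 to 1.07 for DNM1L.

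**Figure D3:**
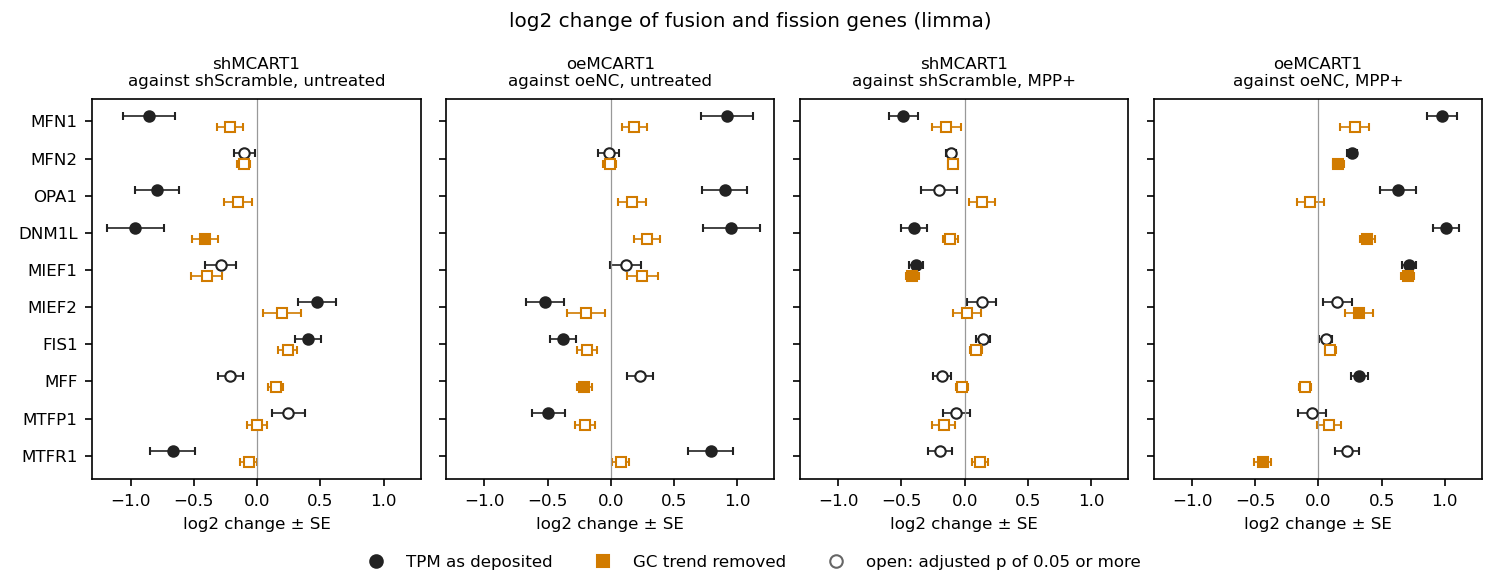
The log2 change ± SE (horizontal axis) of each gene in 4 comparisons, from TPM as deposited (circles) and after removal of the GC trend of each library (squares), filled where the limma adjusted p is under 0.05. Removal of the trend brings MFN1, OPA1 and MTFR1 nearer to 0 without MPP+, and leaves MIEF1 under MPP+ at -0.41 in shMCART1 and 0.71 in oeMCART1 cells.

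The 2 controls differed under MPP+ as well. In treated oeNC against treated shScramble cells 6 members were called lower and none higher (1 higher at an unadjusted p under 0.05, limma), where 42.8% of 14895 genes were called lower and 5.13% higher. The balance turned with median-of-ratios scaling, where 3324 genes were called higher and 2477 lower, so that higher genes made up 57.3% of calls, against 10.7% in TPM as deposited. Under that scaling FIS1, MFN2 and MTFP1 were called higher and DNM1L and MFN1 lower. DNM1L averaged 10.1 ± 1.3 TPM in oeNC cells and 17.4 ± 1.3 TPM in shScramble cells (log2 change -0.74 ± 0.10, adjusted p = 0.000258), and MFN1 1.83 ± 0.07 TPM and 3.80 ± 0.2 TPM (-0.76 ± 0.12, 0.000399). MIEF1 averaged 28.6 ± 0.41 TPM in oeNC cells and 38.1 ± 2.4 TPM in shScramble cells (log2 change -0.40 ± 0.06, adjusted p = 0.000218), which became -0.09 (adjusted p = 0.159) with median-of-ratios scaling. Treated shMCART1 cells averaged 28.9 ± 0.66 TPM of MIEF1, near the treated oeNC cells, and the rise with overexpression is measured from that lower control. MTFR1 (-0.40), MFF (-0.20) and MFN2 (-0.14) were the other members called lower. With median-of-ratios scaling MFN2 was called higher instead (0.18, adjusted p = 0.0182), and the call of MFF ended without any 1 of shScramble replicates 2 and 3 and oeNC replicates 2 and 3. On values without the GC trend, MFF was called higher instead (0.19 ± 0.05, adjusted p = 0.0169), FIS1 was called higher as well (0.19 ± 0.05, 0.0123), DNM1L (-0.23) and MIEF1 (-0.30) remained lower, and MFN1 (-0.22, adjusted p = 0.205), MTFR1 (0.14, 0.16) and MFN2 (0.02, 0.72) were no longer called. Without MPP+, oeNC against shScramble cells gave no call among the members by limma, where 0.197% of genes were called higher and 1.09% lower, and MTFR1 had the largest change (-0.58 ± 0.18, adjusted p = 0.0791, and unadjusted p = 0.00697 by limma, the only 1 of the 10 under 0.05). The targeted gene did differ between these controls, with SLC25A51 at 31.6 ± 3.48 TPM in untreated oeNC and 10.95 ± 0.382 TPM in untreated shScramble cells. Its log2 change was 1.44 ± 0.14 without MPP+ (limma, adjusted p = 0.00203) and 0.09 ± 0.09 with it (0.432). The 2 constructs and their vectors cannot be told apart in these differences.

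Whether the effect of MCART1 itself changed with MPP+ was tested as the difference between the effects within each table. For knockdown no member was called by limma (3 higher and 1 lower at an unadjusted p under 0.05), where 2.02% of 13571 genes had a higher and 2.48% a lower effect under MPP+. OPA1 had the largest difference (0.59 ± 0.23, adjusted p = 0.137), followed by DNM1L (0.56 ± 0.26, adjusted p = 0.192). Without shMCART1 replicate 2, 4 members were called, OPA1, DNM1L and MTFR1 higher and FIS1 lower, where 2559 of 13520 genes were called, 1723 higher and 836 lower, against 610 of 13571 with all libraries. For overexpression 4 members had a higher effect under MPP+ and none a lower one (1 lower at an unadjusted p under 0.05, limma), where 14.1% of genes were called higher and 5.87% lower. The change of SLC25A51 itself was larger under MPP+, at 6.63 against 4.39 without it (difference 2.23 ± 0.18, limma, adjusted p = 1.32e-07). Its level in the oeNC control was 8.49 TPM with MPP+ and 31.6 TPM without it, and in oeMCART1 cells 936 and 683 TPM. MIEF1 had an effect of 0.72 under MPP+ and 0.12 without it (difference 0.60 ± 0.14, adjusted p = 0.00336), MIEF2 of 0.15 and -0.52 (0.67 ± 0.19, 0.016), FIS1 of 0.06 and -0.38 (0.43 ± 0.12, 0.0137) and MFN2 of 0.27 and -0.02 (0.29 ± 0.09, 0.0261). These 4 are the members with high-GC transcripts other than MTFP1 (0.44 ± 0.18, adjusted p = 0.088). With the GC trend removed all 4 remained called and MTFR1 was called lower (-0.52 ± 0.09, adjusted p = 0.000419). With median-of-ratios scaling FIS1 (0.33, adjusted p = 0.223) and MFN2 (0.19, 0.105) lost their calls and MTFR1 was called lower (-0.66, 0.00653). Over all genes that scaling gave 1070 higher and 1261 lower effects, so that higher ones made up 45.9% of calls, against 70.6% in TPM as deposited.

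Ratios of 2 members within a library do not depend on the scaling of that library. They do keep its GC trend where the 2 genes differ in GC content, as MFN2 and MFN1 or FIS1 and DNM1L do. MFN2 over MFN1 was 26.0 ± 6.4 in untreated shMCART1 cells and 13.2 ± 2.44 in shScramble cells, and 8.80 ± 0.79 in oeMCART1 cells and 19.2 ± 4.53 in oeNC cells. With MPP+ it was 23.4 ± 2.86 in shMCART1 cells and 16.1 ± 1.27 in shScramble cells, and 14.7 ± 2.89 in oeMCART1 cells and 30.1 ± 1.43 in oeNC cells. In all 4 comparisons the 3 libraries of one group lay apart from the 3 of the other. With the GC trend removed, MFN2 and MFN1 changed by -0.10 and -0.22 in untreated knockdown, against -0.10 and -0.85 as deposited. In untreated overexpression they changed by -0.01 and 0.19, against -0.02 and 0.92 as deposited. The changes without the trend were -0.09 and -0.15 in treated knockdown, and 0.16 and 0.29 in treated overexpression. FIS1 over DNM1L, a ratio added after the values were seen, was 22.2 ± 11.4 in untreated shMCART1 cells and 7.60 ± 1.59 in shScramble cells, and 8.79 ± 1.07 in treated oeMCART1 cells and 17.99 ± 3.57 in treated oeNC cells. OPA1 over DNM1L, a fusion to fission ratio of 2 genes with GC-poor transcripts, overlapped between groups in both untreated comparisons, at 0.344 ± 0.0435 in shMCART1 cells and 0.329 ± 0.0285 in shScramble cells, and 0.383 ± 0.0655 in oeMCART1 cells and 0.377 ± 0.0571 in oeNC cells. With MPP+ it was 0.232 ± 0.0353 in shMCART1 cells and 0.207 ± 0.0258 in shScramble cells, which overlapped, and 0.234 ± 0.0169 in oeMCART1 cells and 0.284 ± 0.0032 in oeNC cells, which did not. MIEF1 over MIEF2, both GC-rich, was 4.87 ± 0.13 in treated shMCART1 cells and 7.18 ± 0.67 in treated shScramble cells, and 9.09 ± 2.28 in treated oeMCART1 cells and 6.04 ± 0.27 in treated oeNC cells. These groups did not overlap in either comparison. Without MPP+ the ratio was 5.43 ± 1.72 in shMCART1 cells and 9.40 ± 0.455 in shScramble cells. It was 11.57 ± 0.338 in untreated oeMCART1 cells and 6.955 ± 0.81 in untreated oeNC cells. Those groups did not overlap either. The ratios are given as values per library, with no test.

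**Figure D4:**
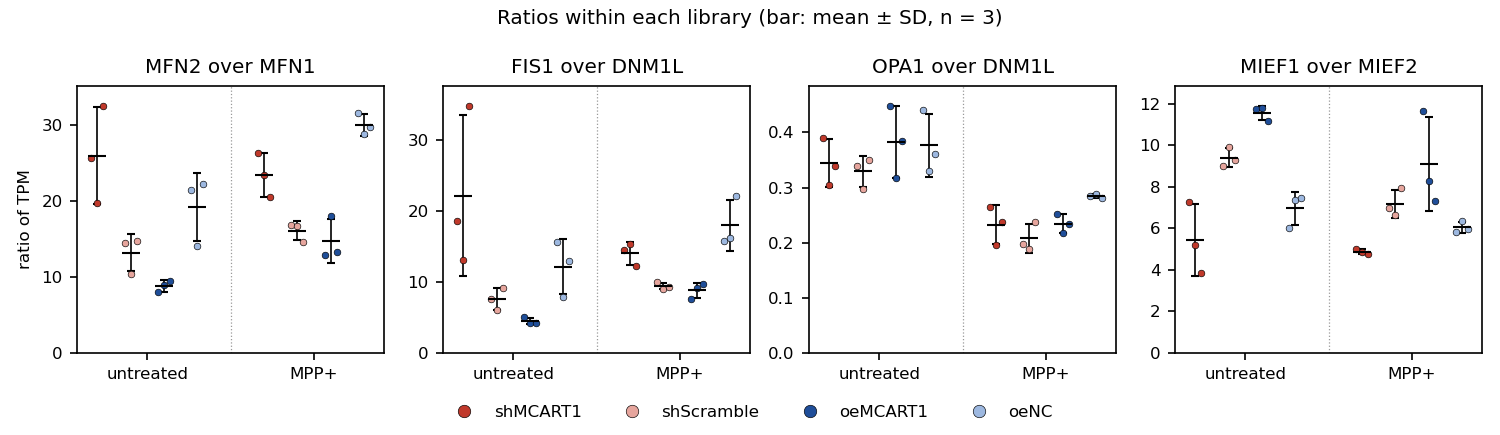
Ratios of TPM of 2 genes within each library (vertical axes, from 0) by construct, without and with MPP+; points are libraries and bars mean ± SD of 3. MFN2 over MFN1 is 26.0 in untreated shMCART1 and 13.2 in shScramble cells on average, while OPA1 over DNM1L lies between 0.297 and 0.448 in all untreated libraries.

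The 5 lists of genes that act with the members were read by their counts and medians. In untreated knockdown the median log2 change was 0.07 for OPA1 processing, -0.14 for cristae organisers, -0.47 for further effectors, -0.19 for protein-modifying regulators and -0.43 for transport, beside -0.15 over all genes. In untreated overexpression these medians were -0.05, 0.40, 0.46, 0.10 and 0.50, beside 0.16. With MPP+ they were -0.03, -0.06, -0.11, -0.11 and -0.09 for knockdown, beside -0.08 over all genes, and 0.29, 0.31, 0.46, 0.29 and 0.32 for overexpression, beside 0.26. Most of these medians lay nearer to 0 once the GC trend was removed. In the same order they were then 0.05, -0.01, -0.13, 0.04 and -0.16 in untreated knockdown, -0.05, 0.05, 0.05, -0.06 and 0.07 in untreated overexpression, -0.05, 0.06, -0.03, 0.01 and -0.04 in treated knockdown, and -0.05, 0.00, 0.11, 0.03 and 0.05 in treated overexpression.

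The counts of these lists stand beside many calls over all genes, 8.64% higher and 25.6% lower in untreated knockdown, 33.5% higher and 14.7% lower in untreated overexpression, 10.8% higher and 22.2% lower in treated knockdown, and 46.7% higher and 14.2% lower in treated overexpression. Removal of the GC trend left calls over all genes of 493 higher and 748 lower of 14157 in untreated knockdown, 1183 and 1122 in untreated overexpression, 1854 and 2005 of 13923 in treated knockdown, and 3598 and 3024 in treated overexpression.

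Of 9 genes that process OPA1 or partner it in the inner membrane, 2 rose and 2 fell with knockdown without MPP+, and 2 rose and 1 fell with it. The protease YME1L1, which cleaves OPA1, fell to 17.2 ± 5.09 TPM in untreated shMCART1 cells, against 31.99 ± 3.73 TPM in shScramble cells, and rose to 40.6 ± 0.33 TPM in oeMCART1 cells, against 18.5 ± 4.69 TPM in oeNC cells. Without the GC trend the changes were -0.33 (adjusted p = 0.0331) and 0.44 (0.00839). With MPP+ YME1L1 changed by -0.40 in knockdown, which was -0.11 without the trend and no longer called (limma, adjusted p = 0.173). In treated overexpression it changed by 0.96, and by 0.33 without the trend (adjusted p = 0.000556). OMA1, the stress-activated protease that also cleaves OPA1, rose to 17.2 ± 2.53 TPM in treated oeMCART1 cells, against 8.03 ± 2.05 TPM in treated oeNC cells (log2 change 1.03 ± 0.19, adjusted p = 0.000508), which with the GC trend removed was 0.36 (0.0834). In overexpression 3 of the 9 rose and 3 fell without MPP+, and 5 rose and 1, the scaffold PHB2, fell with it. Without the GC trend, none of the 9 rose and 1 fell in untreated knockdown, 2 rose and none fell in untreated overexpression, 2 rose and 1 fell in treated knockdown, and 2 rose and 3 fell in treated overexpression. Of 10 cristae organisers of the MICOS complex and its partners, none rose and 4 fell with untreated knockdown, 6 rose and 2 fell with untreated overexpression, and 2 rose and 3 fell with treated knockdown. In this list 7 rose and none fell in treated oeMCART1 cells. After removal of the trend, none rose and 1 fell in untreated knockdown, 1 rose and none fell in untreated overexpression, 1 rose and 1 fell in treated knockdown, and 3 rose and 1 fell in treated overexpression. CHCHD3, a MICOS subunit, rose to 130 ± 9.2 TPM in treated oeMCART1 cells, against 88.2 ± 6.37 TPM in treated oeNC cells. Its log2 change was 0.55 ± 0.06 (limma, adjusted p = 1.53e-05), and 0.20 (0.00337) with the GC trend removed.

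Among 17 further effectors and regulators of fusion and fission, 2 rose and 9 fell with untreated knockdown, 9 rose and 5 fell with untreated overexpression, 4 rose and 4 fell with treated knockdown, and 11 rose and 4 fell with treated overexpression. These counts became 1 and 2, 4 and 2, 3 and 2, and 5 and 4 with the GC trend removed. INF2, a formin that builds actin at sites of division, rose to 34.0 ± 1.63 TPM in treated shMCART1 cells, against 23.1 ± 1.44 TPM in shScramble cells, and fell to 15.7 ± 2.07 TPM in treated oeMCART1 cells, against 32.2 ± 0.95 TPM in oeNC cells. With the GC trend removed its changes were 0.41 (adjusted p = 0.00952) and -0.82 (5.48e-05). RALA, a small GTPase that promotes division in mitosis, fell to 13.4 ± 0.67 TPM in treated shMCART1 cells, against 22.4 ± 1.52 TPM in shScramble cells, and rose to 28.3 ± 2.66 TPM in oeMCART1 cells, against 13.7 ± 1.13 TPM in oeNC cells. With the trend removed its changes were -0.42 (adjusted p = 0.00106) and 0.37 (0.000815). GDAP1, an outer membrane protein mutated in Charcot-Marie-Tooth disease, rose to 13.4 ± 1.17 TPM in treated oeMCART1 cells, against 5.23 ± 0.48 TPM in oeNC cells (log2 change 1.21 ± 0.11, adjusted p = 3.61e-06, and 0.77 with the GC trend removed).

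Of 17 ubiquitin, SUMO, kinase and phosphatase regulators of DRP1 and the mitofusins, 15 were tested without MPP+, of which 3 rose and 4 fell with knockdown and 5 rose and 4 fell with overexpression. With MPP+ 16 were tested, of which 2 rose and 2 fell with knockdown and 10 rose and 3 fell with overexpression. Removal of the GC trend left none higher and 2 lower in each untreated comparison and 2 higher and 1 lower in treated knockdown, and it turned the balance in treated overexpression to 3 higher and 4 lower. PPP3CA, the catalytic subunit of calcineurin that dephosphorylates DRP1, fell to 3.42 ± 0.71 TPM in treated shMCART1 cells, against 7.75 ± 0.79 TPM in shScramble cells (log2 change -0.996 ± 0.144, adjusted p = 0.000567, and -0.72 with the GC trend removed). It rose to 8.43 ± 1.26 TPM in treated oeMCART1 cells, against 3.25 ± 0.46 TPM in oeNC cells (1.15 ± 0.14, 3.42e-05, and 0.54 with the trend removed). The kinase PIM1 moved the other way, at 27.2 ± 2.89 TPM in treated shMCART1 cells against 11.03 ± 2.78 TPM in shScramble cells, and 5.33 ± 0.35 TPM in treated oeMCART1 cells against 16.5 ± 4.78 TPM in oeNC cells. MUL1, a ubiquitin and SUMO ligase of the outer membrane, rose to 25.2 ± 0.33 TPM in treated oeMCART1 cells, against 17.2 ± 0.82 TPM in oeNC cells. Of 10 genes of mitochondrial transport on microtubules, none rose and 4 fell with untreated knockdown, 5 rose and 1 fell with untreated overexpression, 1 rose and 2 fell with treated knockdown and 6 rose and none fell with treated overexpression. Once the trend was removed none was called in untreated knockdown, 2 rose and none fell in untreated overexpression, 2 rose and 1 fell in treated knockdown, and 3 rose and none fell in treated overexpression. TRAK2, an adaptor that links mitochondria to motors, fell to 1.17 ± 0.25 TPM in treated shMCART1 cells, against 3.01 ± 0.33 TPM in shScramble cells, and rose to 3.99 ± 0.33 TPM in oeMCART1 cells, against 1.21 ± 0.06 TPM in oeNC cells. After removal of the GC trend TRAK2 kept both calls, at -0.59 (adjusted p = 0.000875) and 0.54 (0.000553).

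The genes whose means over the 8 groups ran most like those of a member were found by the root mean square difference of log2 levels, each centred within its table. These levels were TPM as deposited and kept the GC trend, whose part in the ranking was not tested. Among 7270 other genes, RCL1 (0.0311) and TMEM43 (0.0338) were nearest to MIEF1, PTPN11 (0.0365) and LYPLA1 (0.0397) to DNM1L, and BCAP31 (0.0297) and NDUFB11 (0.0316) to FIS1. Among 7271, SPRTN (0.0196) and KIF23 (0.0297) were nearest to MFN1, and RABL3 and BRIX1 (both 0.0647) to OPA1. For scale, the root mean square of the member's own centred log2 means was 0.225 for MIEF1, 0.467 for DNM1L, 0.172 for FIS1, 0.446 for MFN1 and 0.403 for OPA1.

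With and without MPP+, set side by side, shScramble cells had MFN1 at 3.80 and 6.05 TPM, OPA1 at 3.62 and 6.54 TPM, MFN2 at 60.9 and 78.1 TPM, DNM1L at 17.4 and 20.04 TPM, FIS1 at 163 and 149 TPM, MFF at 57.8 and 59.9 TPM, MIEF1 at 38.1 and 48.6 TPM, MIEF2 at 5.32 and 5.18 TPM, MTFP1 at 58.7 and 91.5 TPM and MTFR1 at 25.6 and 32.8 TPM. OPA1 over DNM1L was 0.207 ± 0.0258 with MPP+ and 0.329 ± 0.0285 without it in these cells, and it lay lower with MPP+ than without it in each of the 4 constructs. The sum of MFN1, MFN2 and OPA1 over the sum of the 7 fission genes was 0.187 ± 0.0094 with MPP+ and 0.223 ± 0.0049 without it in shScramble cells. It was 0.185 ± 0.0040 and 0.251 ± 0.0058 in oeMCART1 cells, and 0.166 ± 0.0076 and 0.212 ± 0.0210 in oeNC cells. In shMCART1 cells it was 0.173 ± 0.0061 and 0.182 ± 0.0301, and there the libraries overlapped. These differences lie between separately deposited tables and have no test.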

How the data were processed

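The libraries were strand-specific and made from polyadenylated RNA, per the labels' protocols, and the authors deposited TPM in separate tables for untreated and treated libraries, 12 in each. According to the submitters' processing notes the builds were GRCm38, mm10 and GRCh38, with no role stated. The aligner and annotation were not given in the sources. TPM keep no depth, so the depth of each library is unknown. The untreated table held 63266 entries, of which 25 had no gene identifier, and the treated one 36783, of which 42 had none, and these were left out (0 TPM in sum). No column of samples was left unused. Replicates of a group correlated at 0.970 to 0.988. Same-numbered libraries of compared groups deviated together only weakly (correlations from -0.0729 to 0.211), so the numbers were not taken to pair them.

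Values were taken as log2(TPM + 1), which understates the change of low genes. Testing used limma 3.58.1 in R 4.3.3, with a trended empirical Bayes variance, for genes that reached 1 TPM in 3 libraries of their table. Each table was fitted with its 4 groups together, and the differences between effects with all 24 libraries over genes passing in both. A Benjamini-Hochberg adjusted p under 0.05 over all genes tested made a call. Alternatives were a filter of 5 TPM or none, a pseudocount of 0.1, quantile normalization, median-of-ratios scaling, subtraction of the trend of log2 level on transcript GC content in each library (natural spline, 5 degrees of freedom), a replicate block with and without that subtraction, fits of 2 groups alone, and fits that leave out 1 library each. Of the genes tested, 96.3% in the untreated and 93.5% in the treated table had a GC content. Fits were tested on simulated data, where small changes were recovered less often than large ones. GENCODE 29 may not be the authors' annotation. Python 3.11.15, pandas 2.3.3, numpy 2.4.6, scipy 1.17.1 and matplotlib 3.10.9 prepared tables and plots.

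The members and lists were chosen with earlier results of these data known. Every member is named. Of each list, up to 4 genes with the smallest p in each MCART1 comparison were tabulated, and those described were picked from them after their values were seen. The nearest 2 genes per member were sought among genes with an official symbol and a mean of 5 TPM or more in every group. MFN1, OPA1 and MIEF2 themselves did not reach that level in every group. Some marker genes and sequences are not reported here.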

Additional observations from a re-analysis of the deposited data

Results flagged for a closer look

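The effect of overexpression differed with and without MPP+ in 4 members, by limma's test of the difference itself over all 24 libraries, whose treated and untreated tables were deposited separately. The log2 change of SLC25A51 itself also differed, at 6.63 under MPP+ and 4.39 without it. That difference was 2.23 ± 0.18 (SE, limma, adjusted p = 1.32e-07), and whether it bears on the 4 calls was not tested. The control moved as well as the overexpressing cells. SLC25A51 averaged 8.49 TPM in treated and 31.6 TPM in untreated oeNC cells, and 936 and 683 TPM in treated and untreated oeMCART1 cells. For MIEF1 the difference was 0.60 ± 0.14 (SE, log2 scale, adjusted p = 0.00336), and it stayed called in all 9 alternative settings and in all 12 fits that leave out 1 library. MIEF1 averaged 47.7 and 47.6 TPM in untreated and treated oeMCART1 cells, and 44.1 and 28.6 TPM in untreated and treated oeNC cells. Those levels are set side by side, with no test. For MIEF2 the difference was 0.67 ± 0.19 (adjusted p = 0.016), and the call ended without treated oeMCART1 replicate 3 (adjusted p = 0.0525). For FIS1 the difference was 0.43 ± 0.12 (adjusted p = 0.0137), called in all 12 of those fits and not with median-of-ratios scaling or quantile normalization. For MFN2 the difference was 0.29 ± 0.09 (adjusted p = 0.0261), and its call ended in 6 of the 12 fits, those without untreated oeNC replicate 2 or 3, untreated oeMCART1 replicate 1 or 2, treated oeNC replicate 2 or treated oeMCART1 replicate 2.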

How the results depend on the processing

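Of 32 calls among the members over the 8 comparisons, 5 were kept in every setting and every fit without 1 library, namely MIEF1 in both treated MCART1 comparisons and in the overexpression difference, and DNM1L in treated overexpression and in treated oeNC against shScramble cells. In untreated knockdown 6 members were called, against 1 with no filter, 1 with the GC trend removed, 0 with only the 2 groups fitted and 3 with the replicate block and the GC removal together. Over all genes 5035 of 14703 were called there. In the order of those settings the calls over all genes were 1272 of 32421, 1241 of 14157, 0 of 14703 and 1874 of 14157. In untreated overexpression 7 were called, against 1 with the GC trend removed and 2 with the block as well. All genes gave 7082 calls of 14703, against 2305 and 2806 of 14157. In untreated oeNC against shScramble cells 0 were called, against 1 with the GC trend removed, 1 with the replicate block and 1 with both. Here all genes gave 189 calls of 14703, against 1044 of 14157, 1936 of 14703 and 1258 of 14157. In treated knockdown 3 were called, against 1 with the GC trend removed, with or without the block, and in treated overexpression 6, against 3 with quantile normalization. Calls over all genes in treated knockdown were 4924 of 14895, against 3687 with and 3859 without the block, of 13923. For treated overexpression they were 9067 of 14895, against 8077 with quantile normalization. The block alone changed no other count of calls by over 1.5 times. Without 1 library, the counts ranged from 0 to 8 in untreated knockdown, 5 to 7 in untreated and 6 to 7 in treated overexpression, 2 to 4 in treated knockdown, 0 to 2 in untreated and 5 to 7 in treated oeNC against shScramble cells, 0 to 4 for the knockdown difference and 3 to 6 for the overexpression difference. The 0 of untreated knockdown came without shScramble replicate 2, and the 2 calls between untreated controls without oeNC replicate 2. Over all genes these fits gave 2 to 7247 calls in untreated knockdown, and 4005 to 7696 in untreated and 8143 to 8707 in treated overexpression. Treated knockdown gave 3413 to 4600, and oeNC against shScramble cells 6 to 2250 untreated and 5627 to 6809 treated. The knockdown difference gave 257 to 2559 and the overexpression difference 2137 to 2748.

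Signs changed mostly for changes that were not called in TPM as deposited, and the cause was not tested. Some called changes also turned. In treated overexpression these were OPA1 (0.63 as deposited), MFF (0.32) and MFN2 (0.27). In treated oeNC against shScramble cells they were MTFR1 (-0.40 as deposited), MFF (-0.20) and MFN2 (-0.14). With the GC trend removed, with or without the block, MFF came to 0.15 in untreated knockdown, -0.21 in untreated and -0.11 in treated overexpression, 0.14 in untreated and 0.19 in treated oeNC against shScramble cells, and -0.17 for the knockdown difference. OPA1 came to 0.14 in treated knockdown, -0.0635 in treated overexpression, 0.0802 in untreated and 0.29 in treated oeNC against shScramble cells. MTFR1 came to 0.12 in treated knockdown, -0.44 in treated overexpression and 0.14 in treated oeNC against shScramble cells. MTFP1 came to -0.0015 in untreated knockdown and 0.0842 in treated overexpression, and MFN2 to 0.0233 in treated oeNC against shScramble cells and 0.0135 for the knockdown difference. With median-of-ratios scaling and quantile normalization the overexpression difference came to -0.0323 and -0.0563 for DNM1L and to -0.0046 and -0.0105 for MFF. Treated overexpression came to -0.27 and -0.10 for FIS1, -0.13 and -0.17 for MIEF2, and -0.0875 and -0.0529 for MTFR1. Untreated MIEF1 came to -0.11 and -0.0113 in overexpression and 0.0655 and 0.0043 in oeNC against shScramble cells, and in treated oeNC against shScramble cells MIEF2 came to 0.13 and 0.21 and MFN2 to 0.18 and 0.0137. With median-of-ratios scaling alone, MFF came to 0.12 in treated and 0.0557 in untreated oeNC against shScramble cells and -0.0634 for the knockdown difference, MFN2 to -0.0564 in treated overexpression, 0.0028 in treated and 0.10 in untreated knockdown, and MTFP1 to 0.0447 in treated knockdown. With quantile normalization alone, MFN2 came to 0.03 for the knockdown difference and OPA1 to 0.0947 in treated oeNC against shScramble cells. Without 1 library, changes crossing 0 were DNM1L (-0.12 to 0.22) and MFN1 (-0.15 to 0.18) for the overexpression difference, MFF (-0.075 to 0.14), MFN2 (-0.0843 to 0.0377) and MIEF1 (-0.23 to 0.0275) for the knockdown difference, MFN2 in untreated overexpression (-0.0665 to 0.0228) and untreated oeNC against shScramble cells (-0.0363 to 0.053), and MTFP1 in treated overexpression (-0.14 to 0.10).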
